A study of Homo sapiens with 6 samples.

Results

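The genes described here are 8 of the 58676 listed in the table: the metallocarboxypeptidases CPA4, CPA1, CPA3, CPA6, CPD, CPE and CPM, and LXN, which encodes latexin, an inhibitor of such enzymes. They were picked by gene symbol, and CPA4 was chosen by its measured values, since its TPM was lower in A549 Rec than in A549 Mock. The contrast between A549 Rec and A549 Mock is therefore given for CPA4 as a description, with no test. A549 is an established human cell line from a lung adenocarcinoma. A549 Rec (3 replicates) carries a human recoverin cDNA, and A549 Mock (3 replicates) carries the same vector without it. Per the study's methods, both lines were made by retroviral transduction with the pMXs-puro vector and selected with puromycin, and the recoverin cDNA bears a myc tag. The sources used here do not state whether either line is a clone or a pool. The labels describe the same step as a plasmid transfection. RNA came from 2D cultures kept for 6 days in high-glucose medium with calf serum and methylcellulose. Nothing states that the 3 replicates of a group were separate cultures, so p-values measure only the spread between these libraries, which may be technical.

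Metallocarboxypeptidases are zinc enzymes that remove single amino acids from the C-terminus of proteins and peptides. The A/B type, which includes CPA4, is made as an inactive proenzyme and serves in digestion and in tissue proteolysis, with A-type members removing hydrophobic residues. The regulatory type (CPD, CPE and CPM) removes C-terminal lysine and arginine in the secretory pathway or at the cell surface. Latexin, the product of LXN, binds and inhibits A/B-type enzymes.

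The level of each gene was deposited as TPM, in which read counts are corrected for the length of the gene and brought to the same sum of 1000000 in each library, a scale on which genes of different length can be compared. From these values the number of whole reads per gene could be worked out, which came to 15183020 to 18571574 reads per library. RCVRN, the recoverin gene, was without a read in all 3 A549 Mock libraries, while A549 Rec replicates 1, 2 and 3 held 4700, 5769 and 5220 reads, which matches the labels. Both replicate 3 libraries stood apart, with 34.5% (A549 Mock) and 26.9% (A549 Rec) of the TPM on mitochondrially encoded genes against 13.3% to 17.3% in the other 4 libraries. Of the epithelial and A549-type markers, KRT8, KRT18, CDH1, AKR1B10 and ALDH1A1 were abundant, with a mean TPM of 7490 for ALDH1A1, whereas EPCAM reached at most 2.98 and KRT19 at most 0.32. The summed TPM of the 7 markers was 10900 to 16700 in A549 Mock and 14100 to 17600 in A549 Rec, and its part in the results was not tested.

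Among the members, A549 cells expressed the regulatory-type enzymes and 1 enzyme of the A type. CPD had the highest level, with a mean TPM of 90.7 over the 6 libraries, followed by LXN at 28.3, CPE at 20.6, CPA4 at 11.9 and CPM at 4.18. CPA6 had a mean TPM of 0.0651, and CPA1 and CPA3 had 0 reads in every library. The lowest CPD value (63.9) lay above the highest LXN value (32.7), so that CPD stood apart from the rest. LXN lay above CPE in 6 of 6 libraries, although the ranges of both genes over the libraries overlapped. CPE lay above CPA4 in 5 of 6 libraries, with A549 Mock replicate 3 as the exception, where CPA4 was at 19.63 and CPE at 16.69. The lowest CPA4 value (5.56) lay just above the highest CPM value (4.92). These 5 genes passed the filter of the test (3 or more of the 6 libraries at a TPM of 1 or higher), whereas CPA1, CPA3 and CPA6 did not.

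**Figure D1:**
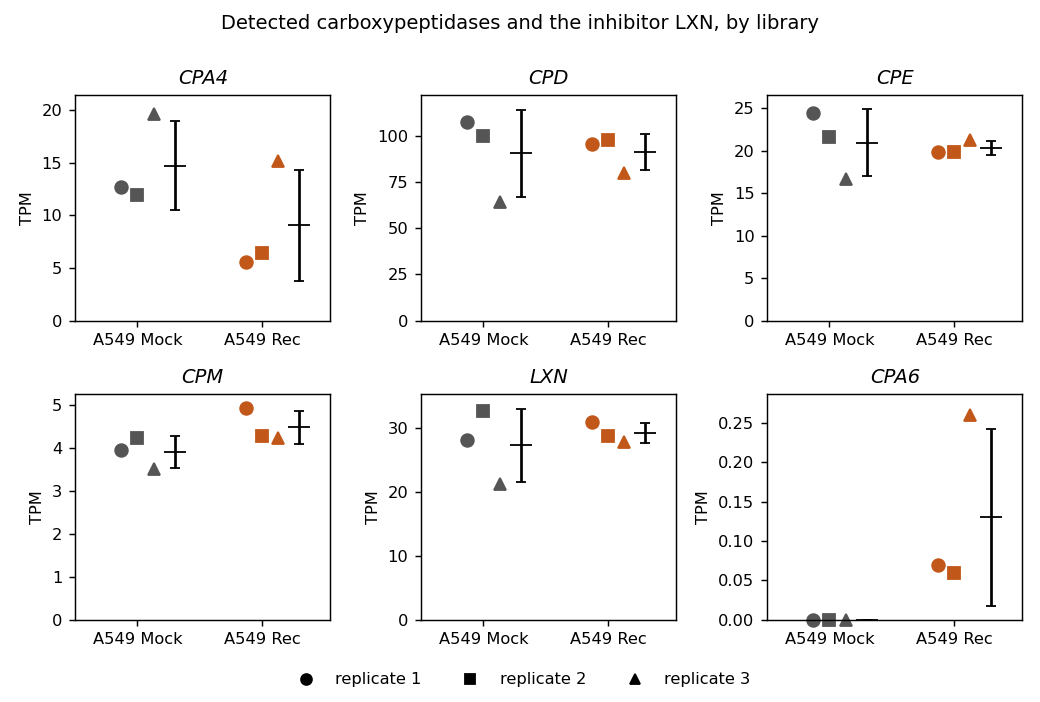
TPM (y axis, from 0) of the 6 members with any reads in A549 Mock (grey) and A549 Rec (orange), where circles, squares and triangles are replicates 1, 2 and 3, and the bar gives the mean ± SD of 3 libraries. CPA4 is the highest in replicate 3 of either group, at 19.63 and 15.15, and CPD is the lowest in replicate 3, at 63.87 and 79.84.

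CPA4 (ENSG00000128510) encodes a secreted A-type carboxypeptidase and occupies chromosome 7 (GRCh38) between 130293134 and 130324180 on the plus strand, with 11 exons in its reference transcript. No other listed gene overlaps it. Its TPM was 12.69, 11.90 and 19.63 in A549 Mock and 5.56, 6.44 and 15.15 for A549 Rec (replicates 1, 2 and 3, in this order throughout). The groups overlapped, because A549 Rec replicate 3 lay above A549 Mock replicates 1 and 2. These values rest on 253, 232 and 436 recovered reads in A549 Mock, against 110, 149 and 316 for A549 Rec. It averaged 14.7 ± 4.25 TPM in A549 Mock against 9.05 ± 5.30 TPM for A549 Rec (SD, n = 3 each). The ratio of these means was 0.614, and the difference was -0.74 on the log2(TPM + 1) scale. Replicate 3 was the highest library of its group in both cases. In bulk RNA, fewer cells that express a gene and less of its RNA per cell cannot be told apart.

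Within same-numbered pairs, CPA4 was lower in A549 Rec in 3 of 3. The ratio of A549 Rec to A549 Mock was 0.438 in pair 1, 0.542 in pair 2 and 0.772 in pair 3. Of the 17408 tested genes, 9.66% were lower in A549 Rec in each pair, which is 1681 genes with CPA4 among them, and nothing is read from its place there. With the replicate 3 libraries left out, A549 Rec lay below A549 Mock without overlap for CPA4, as for 19.2% of the tested genes in this direction, and its log2 difference was -0.93. When the TPM was rescaled without the mitochondrially encoded genes, the ratios were 0.458, 0.527 and 0.692 in pairs 1, 2 and 3.

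The level of CPA4 also differed between replicate 3 and the other libraries of the same group, a contrast that did not serve to choose it. On the log2(TPM + 1) scale, replicate 3 exceeded the mean of replicates 1 and 2 by 0.63 in A549 Mock and by 1.21 in A549 Rec. A replicate 3 library above both others in each group was seen for 8.54% of the tested genes, while 49.2% were below both others in each group. Both shares are on TPM before rescaling, where the larger mitochondrial part of replicate 3 leaves less TPM for other genes. They were not counted after rescaling. CPD belonged to the larger class, with replicate 3 at 0.617 times (A549 Mock) and 0.827 times (A549 Rec) the mean of replicates 1 and 2. After rescaling without the mitochondrially encoded genes, replicate 3 of CPA4 was 2.93 times the mean of the others in A549 Rec, against 2.52 times before. In A549 Mock the rescaled TPM was 30.0 in replicate 3, against 14.7 and 14.1 in replicates 1 and 2. This rescaling raises every other gene in replicate 3 alike, and the ratios of CPD became 0.804 (A549 Mock) and 0.958 (A549 Rec).

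**Figure D2:**
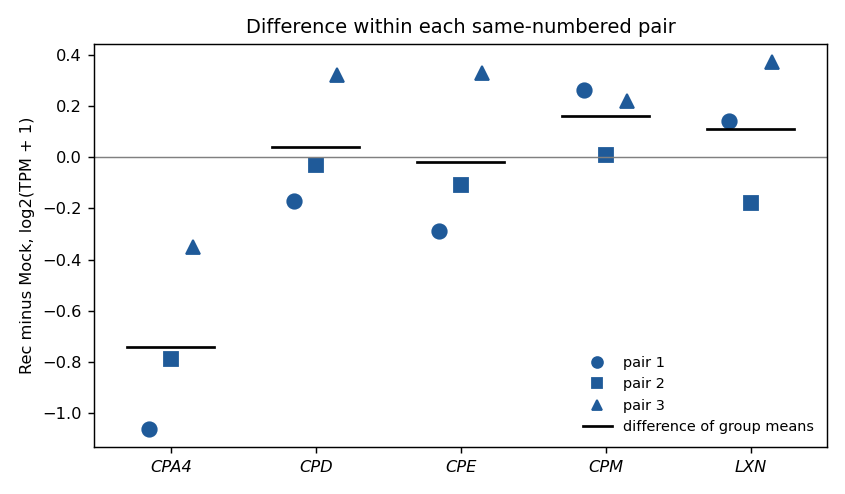
Difference of A549 Rec minus A549 Mock in log2(TPM + 1) (y axis) for the 5 tested members, where circles, squares and triangles are pairs 1, 2 and 3 and the black line is the difference of the group means. CPA4 is below 0 in each pair (-1.06, -0.79 and -0.35), and for CPD and CPE pairs 1 and 2 lie below 0 and pair 3 above it.

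The other 4 tested members were compared by limma across all 17408 tested genes, in which calls required a 2-fold change and an adjusted p (Benjamini-Hochberg) below 0.05. Of the tested genes, 0.00574% were called, which was RCVRN alone, and 0 of these 4 members were called. The study, which used DESeq2 on read counts, reported more genes than this at a 2-fold change and an FDR below 0.05. At an unadjusted p under 0.05 there were 359 of the tested genes and 0 of the 4 members. The median log2 difference of the 4 members other than CPA4 was 0.08, against 0.02 over all tested genes. The same-numbered libraries were treated as pairs in a second fit with the replicate block, which again called 0 of the 4 members.

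CPD (ENSG00000108582, chromosome 17 from 30378905 to 30469989, plus strand) encodes a membrane enzyme of the trans-Golgi network, which trims proteins on the constitutive secretory route. Its TPM was 107.5, 99.62 and 63.87 in A549 Mock, against 95.49, 97.58 and 79.84 for A549 Rec replicates 1, 2 and 3. Replicate 3 was the lowest library in both groups, and the groups overlapped. The log2 difference was 0.04 (95% interval -0.45 to 0.53), with an adjusted p of 0.9997 from limma and a two-sided p of 1.0 from the exact permutation test on TPM. With 4492 to 7146 reads per library, the counting error was small. The ratio in pair 1 was 0.888 (exact binomial 95% interval 0.858 to 0.920) and in pair 3 it was 1.25 (1.20 to 1.30), so the pairs differed in direction. These intervals cover counting error only, and libraries of 1 group differed by more than that. Rescaled without the mitochondrially encoded genes, these ratios were 0.928 and 1.12.

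CPE (ENSG00000109472, chromosome 4 from 165361194 to 165498320, plus strand) encodes the enzyme that trims basic residues from prohormones in the secretory granules of endocrine and neural cells. Its TPM was 24.50, 21.61 and 16.69 in A549 Mock, against 19.90, 19.90 and 21.30 for A549 Rec. A549 Rec lay within the range of A549 Mock in all 3 libraries. The log2 difference was -0.02 (95% interval -0.37 to 0.33), with an adjusted p of 0.9997 from limma and an exact permutation p of 0.9. The ratio of A549 Rec to A549 Mock was 0.812, 0.921 and 1.28 in pairs 1, 2 and 3.

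CPM (ENSG00000135678, chromosome 12 from 68842197 to 68971570, minus strand) encodes a carboxypeptidase that is anchored to the cell surface and trims arginine and lysine from peptides such as kinins. Its TPM was 3.95, 4.23 and 3.50 in A549 Mock, against 4.92, 4.27 and 4.23 for A549 Rec. Each A549 Rec library lay above each A549 Mock library, but the lowest A549 Rec value and the highest A549 Mock value were equal to 2 decimals. Such a pattern was found for 2.47% of the tested genes, and the reverse (each A549 Rec library below each A549 Mock library) for 2.69%. The log2 difference was 0.16 (95% interval -0.15 to 0.48), with an adjusted p of 0.9997 from limma and an exact permutation p of 0.1, the smallest that 3 libraries against 3 allow. CPM was also higher in A549 Rec in each pair, as were 13.1% of the tested genes, with ratios of 1.24, 1.01 and 1.21. After rescaling without the mitochondrially encoded genes the ratio of pair 2 was 0.983 and the groups overlapped, so both the separation and the direction in that pair depended on the scale. Of the 7535 exon bases of CPM in GENCODE v44, 133 also belong to MDM2 on the opposite strand, and the strand setting of the counting is not stated.

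LXN (ENSG00000079257, chromosome 3 from 158645822 to 158672693, minus strand) encodes latexin. Its TPM was 28.12, 32.66 and 21.32 in A549 Mock, against 31.02, 28.79 and 27.89 for A549 Rec. All 3 A549 Rec values fell between the lowest and the highest A549 Mock value. The log2 difference was 0.11 (95% interval -0.27 to 0.49), with an adjusted p of 0.9997 from limma and an exact permutation p of 0.8. LXN was higher in A549 Rec in pairs 1 and 3, with ratios of 1.10 and 1.31, and lower in pair 2 at 0.881. LXN lies within the span of GFM1, a mitochondrial elongation factor gene on the opposite strand, and 45 of its 1459 exon bases in GENCODE v44 are also exonic in GFM1. RARRES1, which encodes a relative of latexin and neighbours LXN, had a higher level than LXN, averaging 74.5 ± 16.5 TPM in A549 Mock against 83.5 ± 3.86 TPM for A549 Rec (SD, n = 3 each). The log2 difference of RARRES1 was 0.19 (95% interval -0.23 to 0.60, adjusted p = 0.9997 from limma).

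The members of low or no expression included both tissue-restricted A-type enzymes. CPA1 (ENSG00000091704, chromosome 7 from 130380339 to 130388114) encodes the pancreatic digestive enzyme, and CPA3 (ENSG00000163751, chromosome 3 from 148865256 to 148897196) encodes the granule enzyme of mast cells. Both had 0 reads in each of the 6 libraries, which allows up to 0.162 to 0.198 reads per 1000000 reads, depending on the library. The defining markers of these tissues were near 0 as well. Of 6 pancreatic acinar markers 4 had 0 reads in every library and none reached a TPM of 1, and of 6 mast cell markers 3 had 0 reads (TPSAB1, CMA1 and MS4A2) and none reached a TPM of 1.

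CPA6 (ENSG00000165078, chromosome 8 from 67422038 to 67746385, minus strand) encodes an A-type enzyme of the extracellular matrix. No read fell on it in A549 Mock, while A549 Rec replicates 1, 2 and 3 had 1, 1 and 4 reads. A549 Rec replicate 3 was the only library above the limit of 3 reads that a count of 0 allows. No fold change is given, and the difference was not tested.

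Of the A/B-type genes as a whole (the 4 A-type members with CPA5, CPB1, CPB2, CPO and the rest of the type), CPA4 carried 95.2% to 98.9% of the summed TPM in each library. CPA5, the next in level, averaged 0.273 ± 0.183 TPM in A549 Mock against 0.253 ± 0.114 TPM for A549 Rec (SD, n = 3 each). The summed TPM of these genes ranged from 5.84 in A549 Rec replicate 1 to 20.6 in A549 Mock replicate 3, the libraries in which CPA4 was lowest and highest.

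**Figure D3:**
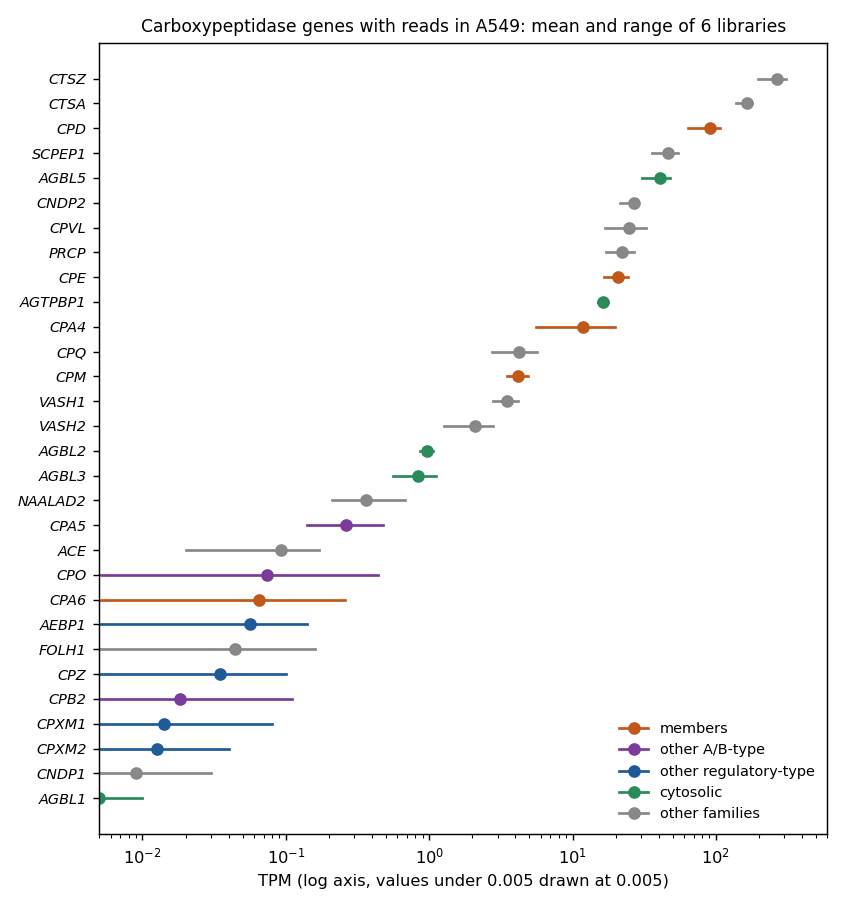
Mean TPM (points, log axis) and range over the 6 libraries (lines) of the carboxypeptidase genes with any reads, coloured by class, where genes with 0 reads in all libraries are left out. CPD, with a mean of 90.7, is the highest metallocarboxypeptidase among those drawn, and CPA4 (11.9) is the only A/B-type gene above a TPM of 1.

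CPA4 lies in a cluster with CPA5 and CPA1, next to MEST and COPG2, in a region of chromosome 7 with imprinted genes. Of 10 neighbouring genes examined, 6 were tested, 0 were called and 0 were lower in A549 Rec in all 3 pairs. Their log2 differences ranged from -0.03 (ZC3HC1) to 0.05 (TMEM209), with a median of 0.02 that equals the median over all tested genes. MEST, the best known imprinted gene there, averaged 52.9 ± 9.85 TPM in A549 Mock against 53.6 ± 2.30 TPM for A549 Rec (SD, n = 3 each), and differed by a log2 value of 0.04 (95% interval -0.33 to 0.40). CPA4 was chosen for its difference and the neighbours were not, so nothing is read from the contrast between them.

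**Figure D4:**
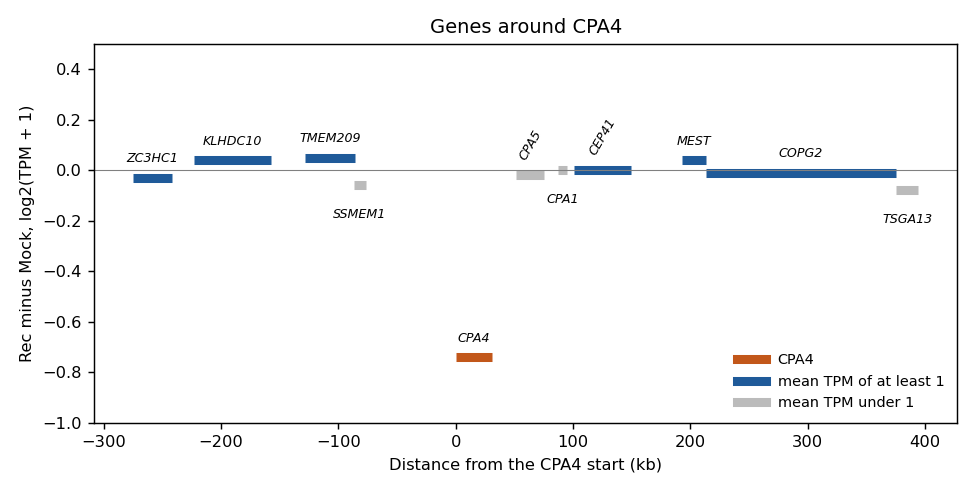
Difference of A549 Rec minus A549 Mock in log2(TPM + 1) (y axis) for CPA4 and genes around it, drawn as bars from start to end by their distance in kb from the start of CPA4 (x axis). CPA4 (orange) lies at -0.74, while the tested neighbours (blue) lie between -0.03 and 0.05. The genes with a mean TPM under 1 (grey) lie near 0, where the pseudocount holds genes with few or no reads.

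Beyond the members, 30 further carboxypeptidase genes were listed, of which 11 were tested, 0 were called and 1 was lower in A549 Rec in all 3 pairs, a pattern of 9.66% of all tested genes. The lower one was CPQ, a lysosomal or secreted enzyme, at 5.63, 5.17 and 3.09 in A549 Mock, against 4.52, 4.26 and 2.74 for A549 Rec (log2 difference -0.21, 95% interval -0.77 to 0.36). The median log2 difference of the 11 genes was 0.03, beside 0.02 over all tested genes. None of the 5 other regulatory-type genes (CPN1, CPZ, CPXM1, CPXM2 and AEBP1) reached a TPM of 1 in any library, so CPD, CPE and CPM stood for this class.

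The most abundant carboxypeptidases of A549 were lysosomal enzymes of other families. CTSZ, a cysteine carboxypeptidase, averaged 262 ± 56.9 TPM in A549 Mock against 273 ± 32.3 TPM for A549 Rec (SD, n = 3 each). CTSA, a serine carboxypeptidase that also protects other lysosomal enzymes, had 164 ± 23.0 and 166 ± 6.86 (SD, n = 3 each). SCPEP1, a relative of CTSA, had a log2 difference of -0.06 (95% interval -0.48 to 0.36), and CNDP2, a cytosolic dipeptidase, one of 0.08 (-0.25 to 0.40).

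Of the cytosolic enzymes that shorten glutamate chains on tubulin, AGBL5 and AGTPBP1 were tested. AGBL5 averaged 39.5 ± 7.72 TPM in A549 Mock against 41.6 ± 7.03 TPM for A549 Rec, and AGTPBP1 had 16.1 ± 0.933 and 16.3 ± 1.12 (SD, n = 3 each). AGBL2 and AGBL3 lay near a TPM of 1 and did not enter the test. AGBL3 had 0.76, 0.75 and 0.56 in A549 Mock, against 1.12, 0.87 and 0.96 for A549 Rec. AGBL2 had 0.98, 1.04 and 1.07 against 0.91, 0.91 and 0.87, so that neither overlapped between the groups. Of the tested genes, which leave out both, 2.47% (A549 Rec above) and 2.69% (A549 Rec below) did not overlap. The share among genes of such low level was not counted. For AGBL2 the groups overlapped after rescaling without the mitochondrially encoded genes.

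The regulatory-type enzymes act after proprotein convertases, which cut precursors behind basic residues. Of 12 convertases and partners 9 were tested, 0 were called, 2 were higher in A549 Rec in all 3 pairs (PCSK1 and PCSK6) and 0 were lower in all 3, against 13.1% and 9.66% of all tested genes. FURIN, the convertase of the constitutive route, averaged 87.2 ± 21.1 TPM in A549 Mock against 90.4 ± 11.8 TPM for A549 Rec (SD, n = 3 each), a level close to that of CPD. MBTPS1, a convertase of the Golgi, had a log2 difference of 0.11 (95% interval -0.27 to 0.48), and PAM, which amidates peptides after CPE has acted, one of -0.05 (-0.32 to 0.22). PCSK2 and SCG5, the granule convertase of neuroendocrine cells and its chaperone, had 0 reads in every library, whereas PCSK1 stood at 7.33, 6.46 and 8.63 TPM in A549 Mock, against 7.36, 7.26 and 9.80 TPM for A549 Rec. Of 6 neuroendocrine markers, the cell type best known for CPE, only PCSK1 and SYP passed the filter, and 3 stayed under a TPM of 1 in every library, with INSM1 at 0 reads.

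The kinin system supplies substrates of CPM. Of its 11 listed genes 6 were tested, 0 were called, 1 was lower in A549 Rec in all 3 pairs (DPP4) and 1 was higher in all 3 (ECE1), beside 9.66% and 13.1% of all tested genes. The median log2 difference was -0.05. BDKRB1, the receptor for kinins trimmed by CPM, stood at 5.04, 3.97 and 2.78 TPM in A549 Mock, against 3.85, 3.60 and 4.54 TPM for A549 Rec, and the groups overlapped. KNG1, the kinin precursor, and MME stayed under a TPM of 1.

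Genes with a pattern like that of CPA4 were ranked by Pearson's correlation of log2(TPM + 1) over the 6 libraries, among 9729 genes with a mean TPM of at least 10. The 5 highest were CLMP (r = 0.988), ABCA1 (0.982), TAB2 (0.980), PAPPA (0.980) and FAM208B (0.973), on chromosomes 11, 9, 6, 9 and 10. CLMP encodes an adhesion molecule of cell junctions, ABCA1 a cholesterol exporter, TAB2 an adaptor of the kinase TAK1, and PAPPA a secreted metalloprotease that cuts insulin-like growth factor binding proteins. Each of the 5 was lower in A549 Rec in all 3 pairs, as were 9.66% of all tested genes. Each was also higher in replicate 3 than in replicates 1 and 2 in both groups, as were 8.54% on TPM before rescaling. The 5 genes were picked for likeness to CPA4 over these libraries, so this shared pattern follows largely from the choice. CLMP stood at 16.51, 15.77 and 18.91 TPM in A549 Mock, against 11.35, 12.36 and 18.58 TPM for A549 Rec. The differences of these genes were smaller than that of CPA4, from -0.04 (FAM208B) to -0.29 (CLMP) on the log2 scale. These values describe likeness among many genes over few libraries that share a scale and carry no test.

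**Figure D5:**
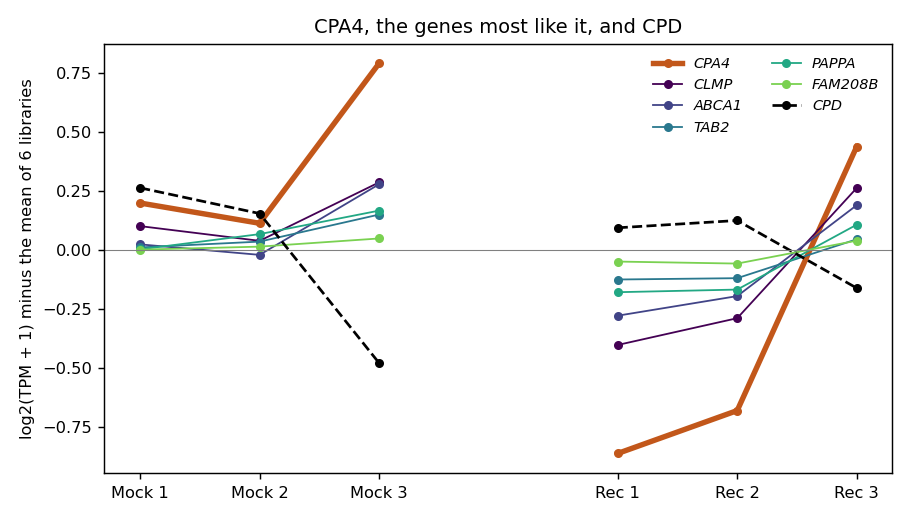
log2(TPM + 1) minus its mean over the 6 libraries (y axis) for CPA4 (thick orange), the 5 genes most correlated with it (thin lines) and CPD (dashed) in each library (x axis). CPA4 and the 5 genes are highest in replicate 3 of each group, whereas CPD is lowest there. The 5 genes were picked for their likeness to CPA4.

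Further marker lists were read beside these results. Of 4 fibroblast markers COL1A1 alone passed the filter, with a TPM of 2.21 to 5.14, and COL1A2 had 0 reads. Of 3 leukocyte markers CD3E had 0 reads, PTPRC had a mean TPM of 0.0246, and CD68 was higher in each A549 Rec library (1.46, 0.70 and 1.47) than in A549 Mock (0.36, 0.65 and 0.65), on 4 to 17 reads. Of the tested genes, which leave out CD68, 2.47% showed this pattern. For CD68 it was lost after rescaling without the mitochondrially encoded genes. For the leukocyte list the sum was 0.449 to 0.651 TPM in A549 Mock against 0.722 to 1.49 TPM for A549 Rec. Most of this sum was CD68, so it has the same limits of few reads and of scale. The part of this list in the results was not tested.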

How the data were processed

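RNA sequencing of 3 A549 Mock and 3 A549 Rec libraries was analysed, with groups and replicate numbers taken from the sample descriptions. Per the study's methods and the submitters' processing notes, the authors trimmed reads with Trimmomatic 0.38, mapped them with HISAT2 2.1.0 and counted them per gene with featureCounts 1.6.3, after FastQC 0.11.7. The methods name GRCh38 and the notes name GRCm38 (mm10), while the table lists human genes, whose positions are given as GRCh38. The annotation release and the strand setting are not given in the sources used here. The authors deposited the values as TPM, which sum to 1000000 per library.

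The test was limma 3.58.1 (R 4.3.3; lmFit, eBayes with trend) on log2(TPM + 1) for genes that reached a TPM of 1 in 3 or more libraries. Single genes were also tested by an exact permutation test (scipy 1.17.1). The log2 scale with a pseudocount understates changes of low genes. Whole reads were recovered by finding, for each gene, the shortest length that made its values whole within 0.01 in all libraries. The annotated exon length was taken where it also did so and was a multiple of that length. Both steps were tested on simulated data, where the recovered reads were exact for 95.9% of 2958 genes. That simulation used annotated lengths and the known scale of each library, and it left out the replacement by the annotated length. In the data the scale was estimated, and 6576 of the 29900 recovered lengths equalled the annotated length, so the 95.9% need not hold there. The recovered reads are therefore not certain for every gene. Libraries with the same replicate number were treated as pairs. Their deviations from the group means correlated across genes at 0.115, 0.164 and 0.342 for replicates 1, 2 and 3. Deviations within a group sum to 0, so the values of replicates 1 and 2 can follow from replicate 3 alone. Other matchings of replicates 1 and 2 were not examined, so these correlations cannot show that pairs 1 and 2 belong together. Libraries of a group differed beyond sampling noise. The members and gene lists were chosen with earlier results of these data known. The genes named were the members, RCVRN, up to 4 genes of highest mean TPM per list and the 5 most like CPA4. Some genes of these lists are not reported here. CPQ, DPP4, PCSK6, BDKRB1, TMEM209, EPCAM, CDH1 and genes at or near 0 reads were named beyond that rule, after their values were seen. The alternatives were a pseudocount of 0.1, no filter, quantile normalization, rescaling without mitochondrially encoded genes, limma without trend, the replicate block, voom on recovered reads with and without the block, leaving out each library, and leaving out both replicate 3 libraries. Rescaling together with the block was added after the data were seen.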

Additional observations from a re-analysis of the deposited data

How the results depend on the processing

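CPA4 was lower in A549 Rec under all 16 alternatives, with a log2 difference from -1.14 to -0.49. The former was found without A549 Rec replicate 3 and the latter without A549 Rec replicate 1. With the replicate block it was -0.74, and the block changed no call of a member. CPA4 was chosen for its fall in these same libraries, so its kept direction is not independent support. CPM was higher in A549 Rec under all 16 alternatives (0.10 to 0.21). The directions of CPD, CPE and LXN were not stable. CPD was at -0.10 without both replicate 3 libraries, at -0.0045 after rescaling without mitochondrially encoded genes (with and without the block), and from -0.19 to 0.18 with each library left out in turn. CPE ranged from -0.17 to 0.09 with each library left out and was at -0.20 without both replicate 3 libraries, its lowest value under any alternative. LXN ranged from -0.05 to 0.24, with -0.02 without both replicate 3 libraries. None of these 4 members was called under any alternative, with or without the block. The number of called genes was 6 without the filter and 6 without the trend (RCVRN and 5 small RNA genes), 2 without both replicate 3 libraries, and 1 to 2 with each library left out, where the 2 came without A549 Rec replicate 2. The cause was not tested. With 3 libraries a group, the 95% intervals of the log2 differences of the 4 members were 0.63 to 0.99 wide, from the lower to the upper bound.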
